A study of Arabidopsis thaliana with 16 samples.

Results

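Pseudogenes are annotated copies or remnants of genes that are thought to have lost the ability to make a full protein. Many are still transcribed. Their transcripts often carry early stop codons, which can expose them to nonsense-mediated decay, the pathway that removes such RNAs, and in plants some pseudogenes and the repeats around them are kept silent by DNA methylation. The genes described here are the 102 of 952 annotated Arabidopsis thaliana pseudogenes with at least 1 FPKM (fragments per kilobase of transcript, scaled to the depth of the library) in any compared group. They were chosen by these levels, so that levels and changes of the same groups are given below as a description and support no test.

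The study compared transcripts and DNA methylation of whole seedlings grown with and without ultraviolet B (UV-B) and frozen on day 10. Growth was on 0.7% agar with 1% sucrose, and the treatment started on day 1. The 3 RNA groups used here are described by genotype and light, each with 2 libraries that the labels call biological replicates: wild-type Col-0 in white light (60 mE), Col-0 in the same white light with 1.5 mE of UV-B at 315 nm, and dd in white light. The dd line carries the T-DNA mutations drm1-2 and drm2-2 in the Columbia-0 background. They hit DRM1 and DRM2, genes for the methyltransferases that act at the end of RNA-directed DNA methylation. UV-B-treated dd seedlings and the bisulfite libraries were not analysed here. Every FPKM value below is the authors' value for a group, pooled over its libraries, and carries no SD. Tests are those the authors deposited, as p-values and adjusted q-values.

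DRM2 checked the genotype labels, with 1.82 FPKM in dd and 7.09 in Col-0 (q = 0.0138 in the authors' deposited table), while DRM1 was listed at 0 in Col-0 and at 0.319 FPKM in dd and checked nothing. The leaf genes RBCS1A, LHCB1.3 and LHCB2.2 ran from 1374 to 13340 FPKM over the 3 groups and the root genes PIP2-2, TIP2-3 and SCR from 5.77 to 189 FPKM, while the seed storage genes CRA1 and CRC were at most 0.504 FPKM. TT4 and ELIP2, which UV-B is known to induce, were higher under UV-B by 1.94 and 3.14 on the log2 scale (q = 0.00249 for both in the authors' deposited table). From the lowest values of isolated transposons, depth was estimated at about 14.5 M fragments per library (M, mega) in Col-0 white light, 4.04 M in dd and 5.68 M under UV-B, so low values are coarser in dd and under UV-B. Of the root genes, TIP2-3 was lower under UV-B, with 5.77 FPKM against 18.6 in Col-0 white light (q = 0.00249 in the authors' deposited table), and its part in the UV-B results was not tested. The other root genes did not pass under UV-B. PIP2-2 had 152 FPKM against 187 (q = 0.420 in the authors' deposited table). SCR was higher by value, with 13.2 FPKM against 12.4 (q = 0.998 in the authors' deposited table). In whole seedlings, fewer cells of a type and less RNA per cell cannot be told apart.

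Pseudogenes stood between protein-coding genes and transposons in how often they reached the minimum. Of all pseudogenes 10.7% did, against 70.6% of 27652 protein-coding genes, 1.81% of 3857 transposable element genes and 2.02% of 31116 transposable elements. Another 268 pseudogenes were above 0 but under 1 FPKM, and 582 were listed at 0 in all groups. Each nuclear chromosome contributed 10.3% to 12.3% of its pseudogenes, and none of the 10 mitochondrial and 1 chloroplast pseudogenes reached 1 FPKM.

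**Figure D1:**
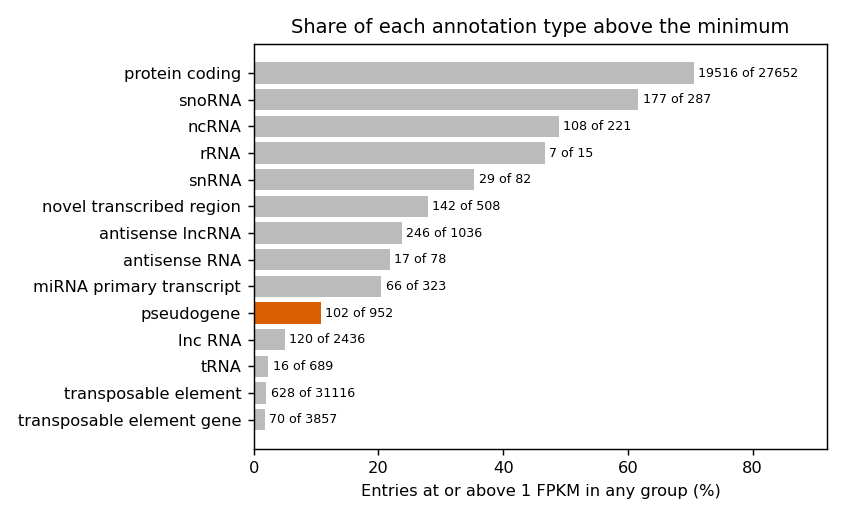
Share of entries of each annotation type with at least 1 FPKM in any of the 3 groups (x axis, percent), with the counts beside each bar. Pseudogenes (orange) reach it in 102 of 952 cases, more often than transposable elements (628 of 31116) and less often than protein-coding genes (19516 of 27652).

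RefSeq types all 102 as transcribed pseudogenes, but it gives that type to 926 of the 941 annotated pseudogenes it matched, expressed or not. Their locus ranges were longer: the 62 members with no other entry in their range had a median length of 1310 bases, against 627 bases for the 565 other pseudogenes alone in theirs. The remaining 40 members shared a range with other entries, 21 of them with a protein-coding gene and 20 with a transposon, 3 with both. Where entries overlap, reads can be divided between them in ways the values do not show, so these levels are uncertain. Of the 21 beside protein-coding genes, 13 were lower than the highest such gene in Col-0 and 7 were higher than all. The protein-coding entries beside those 7 were at most 0.309 FPKM in Col-0. Of the 31 transposon entries in these ranges, 23 were listed at 0 in all groups.

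Most expressed pseudogenes were low, and a few were abundant. At their highest, 72 members were under 5 FPKM and 18 reached at least 10 FPKM. Among those with at least 1 FPKM in Col-0 white light the median level was 3.03 FPKM, against 12.6 FPKM for protein-coding genes above the same limit. The 5 highest members held 49.5% of the members' summed FPKM in Col-0, 54.5% in dd and 52.0% under UV-B. In Col-0 white light these were AT4G04692, AT2G16367, AT1G79245, AT1G05135 and AT2G20724, the only members above 40 FPKM there.

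AT4G04692 (chromosome 4, 2375521 to 2376462) had 94.5 FPKM in Col-0, 99.4 in dd and 97.4 under UV-B. AT1G05135 (chromosome 1, 1477487 to 1478900) had 64.4, 63.2 and 57.5 FPKM in the same order, sharing its range with other entries, and AT2G20724 (chromosome 2, 8932580 to 8933262) had 48.1, 43.2 and 48.9 FPKM. The 3 groups lay close together for each of these, and none passed the authors' test in either comparison. Next in Col-0 came AT2G04110 at 26.2 FPKM. AT1G80800 had 23.0, 24.2 and 19.8 FPKM, and AT3G24927 had 22.6, 25.4 and 24.7 FPKM. AT1G13145 and AT5G11242, with short loci of 475 and 184 bases, were at 14.8 to 18.5 FPKM in all groups.

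**Figure D2:**
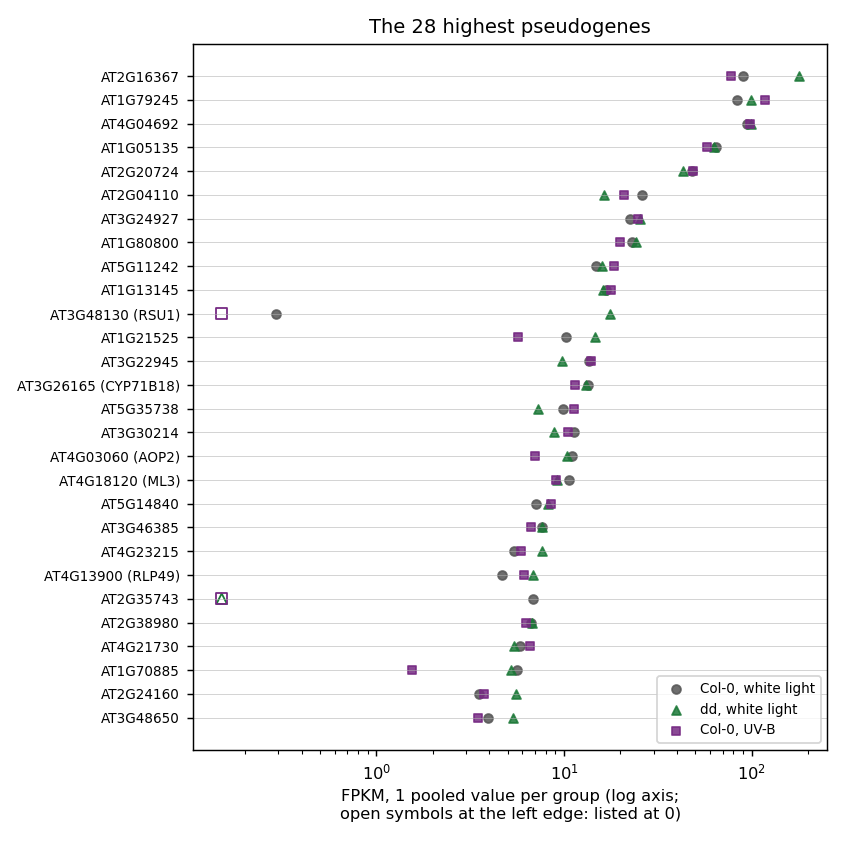
Levels of the 28 pseudogenes with the highest value in any group (x axis, FPKM on a log scale), with 1 pooled value each for Col-0 in white light (grey circles), dd (green triangles) and Col-0 under UV-B (purple squares). Most rows hold 3 close symbols. AT2G16367 stands out for dd at 178 FPKM, and AT3G48130 for 17.5 FPKM in dd against 0.292 in Col-0.

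The level was similar in all groups for most members. At least 1 FPKM was reached in Col-0 by 85 members, in dd by 86, under UV-B by 85, and in all 3 by 74. Of the 89 members above 0 in every group, 76 were within 1.5-fold of Col-0 in dd, 72 under UV-B and 62 in both. The sum over all members was 770 FPKM in Col-0, 887 in dd and 769 under UV-B. Without the 5 highest Col-0 members the sums were 389, 403 and 369 FPKM.

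The first comparison set dd against Col-0, both in white light, and addresses how these transcripts differ in the drm1 drm2 mutant. Of 90 members the authors tested, 2 passed q 0.05, beside 0.421% of 20416 entries of all types. Both, AT2G16367 and AT2G15030, were higher in dd (0.264% of all entries were called higher), and 0 were lower (0.157%). Since the same values chose the members, nothing is read from these counts. At an unadjusted p under 0.05 in the authors' deposited table, 9 members passed, beside 3.71% of all entries, with 7 higher (1.78% of all entries) and 2 lower (1.92%).

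AT2G16367 (chromosome 2, 7079650 to 7080075), a locus of 426 bases with no other entry in its range, had 90.3 FPKM in Col-0, 178 in dd and 77.9 under UV-B. The dd value alone stood apart. The rise was 0.98 on the log2 scale (q = 0.0138 in the authors' deposited table), while UV-B and white light did not differ past the threshold (log2 change -0.20, q = 0.855 in the authors' deposited table). Among the 8 protein-coding genes with at least 1 FPKM within 30 kb, log2 changes in dd ran from -0.26 to 0.14 and none passed the test. THY-1, a thymidylate synthase gene with its locus 1688 bp away, had 20.2 FPKM in Col-0 and 19.4 in dd. DRD1, a chromatin remodeller of RNA-directed DNA methylation, had 3.53 and 3.55 FPKM. A second expressed pseudogene, AT2G16310, lies 13460 bp away on the side of AT2G16365. It had 0.0716 FPKM in Col-0, 1.32 in dd and was listed at 0 under UV-B. The dd value alone made AT2G16310 a member, so its higher level in dd was fixed by the choice. It was tested for dd and did not pass (p = 0.237, q = 0.999 in the authors' deposited table).

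AT2G15030 (chromosome 2, 6503074 to 6506409) had 0.908 FPKM in Col-0, 2.36 in dd and 0.860 under UV-B. It became a member through its dd value alone. The rise in dd was 1.29 on the log2 scale (q = 0.0138 in the authors' deposited table), and the UV-B comparison was not tested. A long non-coding RNA and a protein-coding entry share its range and were both listed at 0 in all groups. The protein-coding gene AT2G15042, 993 bp away, went the other way with 3.38 FPKM in Col-0 and 1.02 in dd, without passing the test (q = 0.0960 in the authors' deposited table). RLP19, a receptor-like protein gene 26674 bp away, had 9.41 FPKM in Col-0 and 14.1 in dd, also without passing (q = 0.132 in the authors' deposited table).

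**Figure D3:**
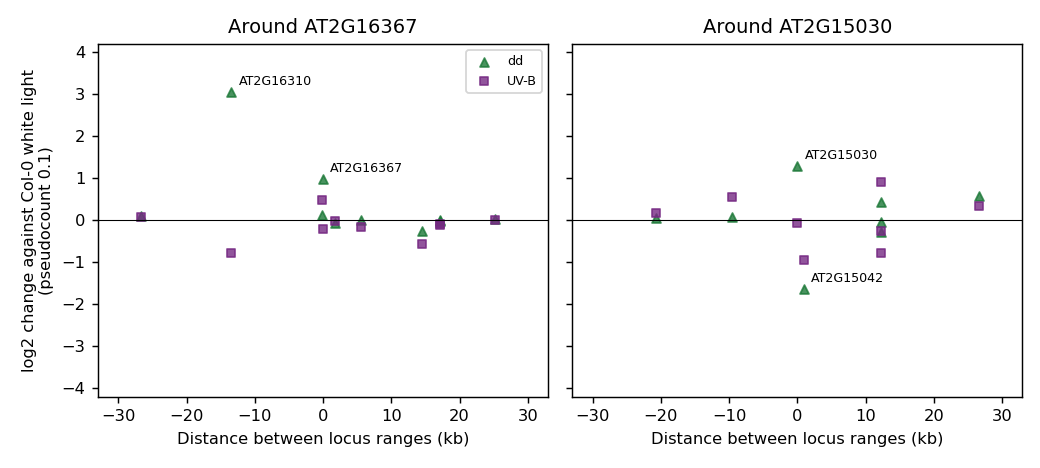
Log2 change in dd (green triangles) and under UV-B (purple squares) against Col-0 in white light, with a pseudocount of 0.1 FPKM (y axis), for all entries with at least 1 FPKM in any group around the 2 pseudogenes called higher in dd, by distance between locus ranges (x axis, kb). Around AT2G16367 the protein-coding genes lie between -0.26 and 0.14 in dd and between -0.57 and 0.49 under UV-B. The pseudogene AT2G16310 is high in dd, and reached 1 FPKM only there. Beside AT2G15030, AT2G15042 has a log2 change of -1.63 in dd.

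Among members above 0 in both groups, the widest ratio of dd to Col-0 belonged to AT3G48130, named RSU1 in RefSeq (chromosome 3, 17774877 to 17775587). Its level was 0.292 FPKM in Col-0 and 17.5 in dd, and it was listed at 0 under UV-B. Its dd value alone made it a member. It did not pass the test in dd (p = 0.0928, q = 0.999 in the authors' deposited table). Whether both dd libraries carried it cannot be told from a pooled value. The 15 protein-coding genes with at least 1 FPKM within 30 kb had log2 changes from -0.32 to 0.39 in dd, and none passed. A protein-coding entry that shares its range, AT3G48131, was listed at 0 throughout.

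Other members leaned higher in dd without passing q 0.05. AT2G13420 had 1.57 FPKM in Col-0, 3.25 in dd and 1.35 under UV-B (q = 0.328 for dd in the authors' deposited table). AT2G24160 had 3.50, 5.56 and 3.74 FPKM (q = 0.248 for dd in the authors' deposited table). For both, dd was the high group and UV-B stayed near Col-0. AT2G04110 leaned lower, with 26.2 FPKM in Col-0, 16.4 in dd and 21.0 under UV-B (q = 0.0960 for dd in the authors' deposited table). AT2G04033, with 1.65 FPKM in Col-0 and 0.697 under UV-B, was listed at 0 in dd and shares its range with other entries (q = 0.241 in the authors' deposited table). By value AT3G22945 (9.79 FPKM in dd against 13.5 in Col-0) and AT5G35738 (7.27 against 9.89) were also lower. The same held for AT3G17110 (1.99 against 2.71) and AT3G30214 (8.88 against 11.3). For each of these q was 0.999 in the authors' deposited table.

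The second comparison set Col-0 under UV-B against Col-0 in white light, using the same Col-0 libraries, whose values in this table are lower by a median of 0.856%. Of 88 members tested, 2 passed q 0.05, beside 3.85% of 20595 entries. AT1G79245 was higher (2.04% of all entries were called higher) and AOP2 was lower (1.81%). As above, the values chose the members and nothing is read from the counts. At an unadjusted p under 0.05 in the authors' deposited table, 8 members passed, beside 11.7% of all entries, with 2 higher (6.03% of all entries) and 6 lower (5.64%).

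AT1G79245 (chromosome 1, 29804594 to 29809514) is alone in a range of 4921 bases. It had 84.0 FPKM in Col-0 white light, 99.7 in dd and 118 under UV-B. The rise under UV-B was 0.51 on the log2 scale (q = 0.0225 in the authors' deposited table), and the dd value did not pass (log2 change 0.25, q = 0.999 in the authors' deposited table). Of 14 protein-coding genes with at least 1 FPKM within 30 kb, none passed under UV-B, with log2 changes from -0.55 to 0.54.

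AOP2 (AT4G03060, chromosome 4, 1349025 to 1354096) belongs to the glucosinolate pathway. In other Arabidopsis accessions it encodes a dioxygenase that makes alkenyl glucosinolates, and the Col-0 copy is known to be non-functional. It had 11.1 FPKM in Col-0 white light, 10.4 in dd and 7.003 under UV-B. The fall under UV-B was -0.64 on the log2 scale (q = 0.0187 in the authors' deposited table). Its related neighbour AOP1 had 10.2, 9.96 and 8.19 FPKM and did not pass (log2 change under UV-B -0.30, q = 0.969 in the authors' deposited table). AOP3, the other gene of the cluster, was at most 0.0484 FPKM. A transposon entry shares the range of AOP2 and was listed at 0 in all groups.

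**Figure D4:**
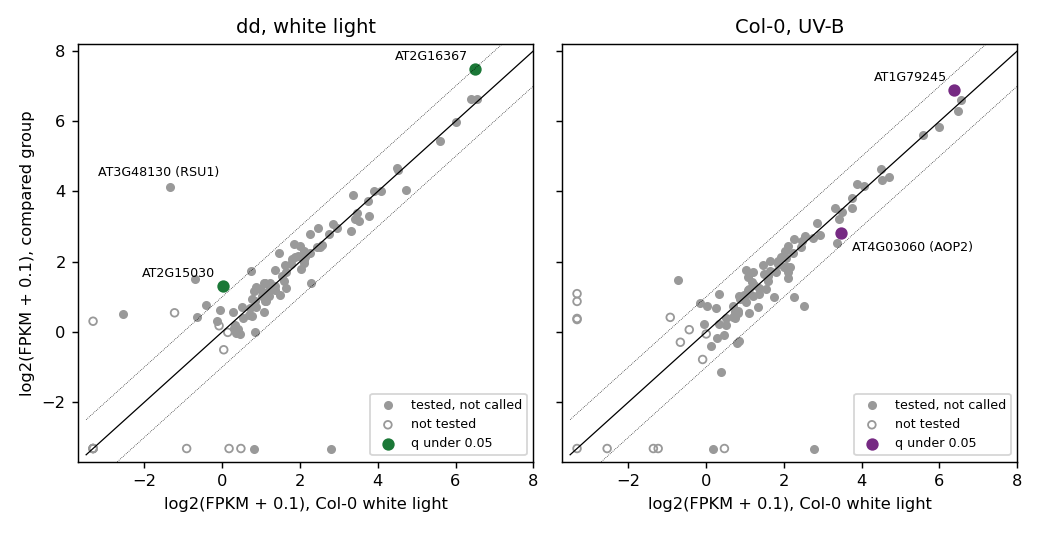
Level of each of the 102 pseudogenes in dd (left) and under UV-B (right) against Col-0 in white light, both as log2(FPKM + 0.1), with the line of equality and dotted lines at 2-fold. Filled grey points were tested by the authors, open points were not, and coloured points passed q 0.05, which were AT2G16367 and AT2G15030 for dd and AT1G79245 and AOP2 for UV-B. Points on the lower and left edges are listed at 0.

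Among members that did not pass under UV-B, AT1G70885 had 5.63 FPKM in Col-0, 5.22 in dd and 1.55 under UV-B (q = 0.167 in the authors' deposited table). AT1G21525 had 10.2, 14.7 and 5.69 FPKM (q = 0.228 for UV-B and 0.999 for dd in the authors' deposited table). For the first only UV-B was low, and for the second dd was the high and UV-B the low group. AT3G53403, with a locus of 326 bases, had 4.73, 2.52 and 1.88 FPKM (q = 0.777 for UV-B in the authors' deposited table). AT5G42445 was the other way, with 1.97, 2.11 and 3.32 FPKM (q = 0.942 for UV-B in the authors' deposited table). Also higher by value were AT1G09486 (2.01 FPKM under UV-B against 1.17 in Col-0 white light), AT1G23470 (3.17 against 2.21) and AT1G28620 (2.85 against 2.04). Lower were AT3G56275 (1.90 against 3.30), AT5G36270 (1.54 against 2.46) and AT5G06278 (1.35 against 2.05). None of these passed under UV-B.

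As a group the members were not shifted far in either comparison. The median log2 change, with a pseudocount of 0.1 FPKM, was 0.01 in dd, where 51 members were higher by value, 47 lower and 4 were equal. Over the 20416 entries tested by the authors the median was 0.00. Under UV-B the median was -0.04, with 48 higher, 53 lower and 1 equal, against 0.00 over 20595 entries tested. The quartiles of the members were -0.18 and 0.28 in dd and -0.30 and 0.21 under UV-B, against -0.11 and 0.11 and against -0.17 and 0.15 over the tested entries. These member values include members that the authors did not test. Over the tested members the median was 0.03 in dd and -0.07 under UV-B. Over all entries with at least 1 FPKM in the compared groups, the quartiles were -0.12 and 0.11 in dd and -0.17 and 0.15 under UV-B.

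The spread was also read at like levels. From 1 to 3 FPKM in Col-0, the median size of the log2 change in dd was 0.23 for 42 members and 0.24 for 2666 protein-coding genes. From 3 to 10 FPKM it was 0.18 for 27 members and 0.14 for 5467 genes. From 10 to below 1000 FPKM it was 0.16 for 16 members and 0.08 for 10818 genes. Under UV-B the values were 0.27 and 0.26, then 0.21 and 0.16, then 0.20 and 0.13. Changes past 2-fold in dd were seen for 9.52% of members and 5.29% of genes from 1 to 3 FPKM. The shares were 3.70% and 1.04% from 3 to 10, and 0% and 0.342% from 10 to below 1000. Under UV-B the shares were 11.9% and 7.43%, then 11.1% and 2.65%, then 0% and 1.24%. In the 2 lower ranges the member shares rest on 4 and 1 members in dd and on 5 and 3 under UV-B. Those 3 were AT2G35743, AT3G53403 and AT1G70885, with loci of 283, 326 and 556 bases. Levels within these ranges were not matched further, locus lengths were not matched, and no test was made.

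The choice by level fixes the direction of some changes. The 17 members under 1 FPKM in Col-0 had to be higher in another group, 8 of them reaching the minimum in dd only, 6 under UV-B only and 3 in both. The 6 with UV-B only had a median locus length of 262 bases, against 1293 for the 8 with dd only, 1311 for the 8 with Col-0 only and 2020 for the 74 that reached it in all groups. Of 13 members listed at 0 in at least 1 group, 10 had a locus under 500 bases, as did 16 of all 102. AT4G05087, a locus of 220 bases, had 2.03 FPKM under UV-B and was listed at 0 in both white-light groups. AT2G35743, with 283 bases and a range shared with a small nucleolar RNA, had 6.85 FPKM in Col-0 and was listed at 0 in dd and under UV-B, and did not pass either test (q = 0.999 and 0.770 in the authors' deposited table). The part of short loci and of depth in these values was not tested.

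AT2G07726 (chromosome 2, 3448314 to 3449257) had 0.511 FPKM in Col-0, 2.73 in dd and 2.71 under UV-B, and passed neither test (q = 0.999 and 0.846 in the authors' deposited table). It lies in the part of chromosome 2 known to carry a nuclear copy of mitochondrial DNA, shares its range with another entry, and may share reads with near-identical copies, so its level is uncertain. At the minimum itself, ATPUP20 (1.00 FPKM in Col-0), AT1G61830 (1.03 in dd) and AT2G37830 (1.03 in Col-0) were just inside. AT3G04717 (0.972 in Col-0), AT2G23673 (0.913 in Col-0) and AT3G60613 (0.905 under UV-B) were just outside.

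RefSeq gives 9 members a gene symbol, and 8 of these have protein-coding relatives with the same symbol stem. AOP2 was the highest of its 3 genes in Col-0. CYP71B18 (AT3G26165), a cytochrome P450 pseudogene, had 13.5 FPKM in Col-0, 13.1 in dd and 11.5 under UV-B, and in Col-0 it was higher than 23 and lower than 10 of 33 protein-coding CYP71B genes. Its neighbour CYP71B19 had 9.42, 8.78 and 7.19 FPKM and CYP71B20 had 42.5, 42.5 and 33.9 FPKM. None of these 3 passed either test.

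CYP705A16 (AT3G20083), of another P450 family, had 2.67 FPKM in Col-0, 4.68 in dd and 3.61 under UV-B (p = 0.0438 and q = 0.999 for dd in the authors' deposited table). CYP705A15, which shares its locus range, had 4.17, 3.91 and 3.97 FPKM. Of the 18 protein-coding CYP705A genes with at least 1 FPKM, dd was by value lower for 16 and higher for 2, against 10051 lower of 20416 tested entries of all types. CYP705A5 passed in dd, beside 0.421% of all entries, with 22.1 FPKM in Col-0 and 8.05 in dd (q = 0.0138 in the authors' deposited table). Under UV-B 5 of the 18 were higher by value and 13 lower, against 10330 lower of 20595 tested entries. CYP705A28 and CYP705A30 reached 1 FPKM in Col-0 only, so that minimum fixed their lower values in dd and under UV-B. Nothing is read from these counts. Under UV-B CYP705A5 and CYP705A13 passed, beside 3.85% of all entries, both lower (q = 0.00249 and 0.0262 in the authors' deposited table). CYP705A16 had the higher value in dd, as did the smaller number of its relatives, with no test of that difference.

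RLP49 (AT4G13900), a receptor-like protein pseudogene, had 4.70 FPKM in Col-0, 6.87 in dd and 6.13 under UV-B, higher in both than in Col-0 but past neither threshold (q = 0.363 and 0.374 in the authors' deposited table). In Col-0 it was higher than 44 and lower than 8 of 52 protein-coding RLP genes. Among the 31 of these with at least 1 FPKM, dd was by value higher for 22 and lower for 9, while over all tested entries it was higher for 10365 of 20416. RLP38, RLP43 and RLP53 reached 1 FPKM in dd only, and RLP3 under UV-B only. Their higher values there were fixed by that minimum, and nothing is read from these counts. In dd 2 passed in the authors' deposited table, beside 0.421% of all entries, RLP40 and RLP41, both higher. Under UV-B 16 were higher by value and 15 lower, and 2 passed, beside 3.85% of all entries. These were RLP31, which was higher (q = 0.0473 in the authors' deposited table), and RLP40, which was lower (q = 0.00992 in the authors' deposited table).

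ML3 (AT4G18120), a MEI2-like pseudogene of a family of RNA-binding proteins, had 10.6 FPKM in Col-0, 9.20 in dd and 9.11 under UV-B. Its 4 protein-coding relatives ranged from 7.30 to 34.8 FPKM in Col-0, with ML3 in the middle of the order. RNR2B (AT5G40942), a copy of the small subunit of ribonucleotide reductase, had 4.18, 3.80 and 3.52 FPKM. The protein-coding copies RNR2A and TSO2 were higher, at 17.6 and 47.0 FPKM in Col-0. RABA4E (AT2G22390), of a family of small GTPases, had 4.23, 4.03 and 2.82 FPKM, while RABA4B, the highest relative, had 53.5 FPKM in Col-0. RABA4E shares its range with AT2G22400, at 18.1 FPKM in Col-0. ATPUP20 (AT1G47590), of the purine permease family, had 1.00, 0.890 and 0.659 FPKM and was lower in Col-0 than 10 of 19 protein-coding relatives.

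**Figure D5:**
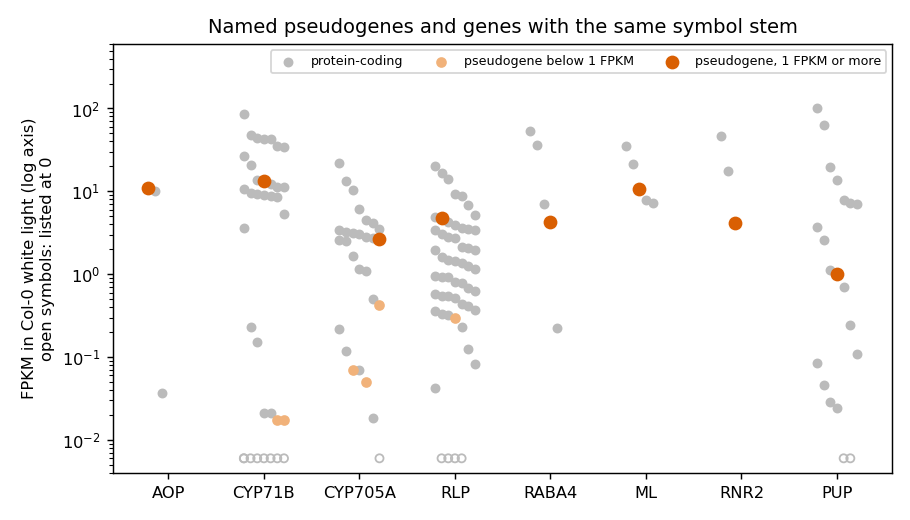
Levels in Col-0 white light (y axis, FPKM on a log scale) of the 8 pseudogenes with a family symbol (dark orange), of other pseudogenes of the same symbol stem under 1 FPKM (light orange) and of protein-coding genes with that stem (grey). Open circles are listed at 0. AOP2 is the highest of its 3 genes and CYP71B18, RLP49 and ML3 lie within the range of their protein-coding relatives, while RNR2B lies under both of its relatives.

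Genes of DNA methylation were also read. Of 10 tested genes of DNA methylation and its removal, 1 passed in dd in the authors' deposited table, beside 0.421% of all entries. It was the demethylase gene ROS1, with 7.02 FPKM in Col-0 and 0.907 in dd. None passed under UV-B, beside 3.85% of all entries, and none had an unadjusted p under 0.05 there. By value 7 of 10 were lower in dd, with a median log2 change of -0.07, and 9 of 10 under UV-B, with a median of -0.11. Over all tested entries 10051 of 20416 were lower in dd and 10330 of 20595 under UV-B. NRPD1, which encodes the largest subunit of RNA polymerase IV, had 1.82 FPKM in Col-0 and 2.53 in dd (p = 0.034 and q = 0.999 in the authors' deposited table).

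The authors' lists of raised transposons were set against the members' ranges. These hold 31 transposon entries, out of 31116 transposable elements and 3857 transposable element genes. Of 270 entries in the dd list, 2 lay in a member's range, and of 269 in the UV-B list none did. With so few transposon entries in these ranges, nothing is read from either count. AT1TE37075, in the range of AT1G31900, had 2.27 FPKM in Col-0 and 5.94 in dd, without passing the test (p = 0.580 in the authors' deposited table), while AT1G31900 itself had 1.69 FPKM in Col-0 and 0.894 in dd. AT2G26215, in the range of AT2G26220, had 0.190 and 0.370 FPKM, and AT2G26220 had 3.03 and 2.29 FPKM. Both transposons came from the list of those raised in dd, so their direction was fixed by that choice. The 2 pseudogenes had the lower value in dd without passing (p = 0.677 for AT1G31900 and 0.0974 for AT2G26220 in the authors' deposited table). Nothing is read from the opposite directions.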

How the data were processed

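The RNA kit marks strand, per the labels' protocols. Cufflinks, HISAT2, BSMAP, Trimmomatic and the build TAIR10 are listed in the submitters' processing notes, while their versions and roles are not given in the sources used here. For each group the authors deposited 1 pooled FPKM value, a unit read from the values and the table layout. The deposited p-values and q-values and the deposited test scores are the authors' own, per the file headers; the scores were not used. Values per replicate were not used here, so no model was fitted, and members of a group were described only by counts and medians.

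Pseudogenes were taken from the deposited annotation type. Log2 changes were computed as (value + 0.1) over (Col-0 value + 0.1), which understates changes of low genes. The deposited fold column was not used. Coordinates are the tables' locus ranges, written 1-based, and can span overlapping entries. Symbols came from the RefSeq table of TAIR10.1, which matched 37840 of 69252 entries; its coordinates were not used. Depth was estimated from isolated transposons over 1.2 kb, taking the lowest products of value and length as 1 fragment in 1 of 2 libraries. It ranged from 12.6 to 17.1, 3.63 to 5.63 and 5.28 to 6.24 M fragments (M, mega) for Col-0, dd and UV-B, and is rough.

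Members, lists and rules were chosen with earlier results of these data known. The result of 1 gene list is not reported here. Pseudogenes named are those past q 0.05, the 10 highest, the 8 highest and 8 lowest changes per comparison with at least 2 FPKM, and 3 on each side of the minimum. Of 14 description keywords searched in RefSeq symbols and synonyms, only cytochrome P450 was found. Relatives by symbol stem, neighbours within 30 kb and the other named pseudogenes were chosen after their values were seen. Functions were checked on simulated data. Python 3.11.15, pandas 2.3.3 and scipy 1.17.1 were used.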

Additional observations from a re-analysis of the deposited data

How the results depend on the processing

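No paired analysis was possible because the tables hold 1 pooled value per group; for the same reason no replicate could be left out, and the fit with a replicate block was not run. The number of members was 30 at a minimum of 5 FPKM and 62 where the locus range holds no other entry, and stayed within 1.5-fold of 102 for the other minimums. Members called higher in dd were 1 at a minimum of 5 FPKM, 1 with no other entry in the range, 0 at q 0.01 and 7 at an unadjusted p under 0.05, against 2; members called lower were 2 at an unadjusted p under 0.05, against 0. Under UV-B 1 was called higher, against 0 at q 0.01 and 2 at an unadjusted p; 1 was called lower, against 0 with no other entry in the range, 0 at q 0.01 and 6 at an unadjusted p. The smallest q in the dd table is 0.0138, so q 0.01 could not be met there. The median log2 change ran from -0.02 to 0.06 in dd and from -0.10 to 0.02 under UV-B over 10 alternatives each. All lay within the 95% binomial intervals of the medians (-0.04 to 0.10 and -0.17 to 0.06), which cover sampling of members and not replicate error. The alternatives largely reuse the values of the same members, so nothing is read from their lying within these intervals. The share of members with the higher value ran from 47.1% to 59.7% in dd and from 43.5% to 51.4% under UV-B. The limit of 500 bases on locus length was added after the values were seen. Changes of members near 1 FPKM rest on few fragments, most of all in dd and under UV-B.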

Other observations

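Some named pseudogenes of the same families stayed under the minimum. CYP71B27 and CYP71B33 had 0.0172 FPKM each in Col-0 white light and were listed at 0 in dd and under UV-B. CYP705A14P had 0.429 FPKM in Col-0 and 0.286 under UV-B and was listed at 0 in dd. RLP18, a receptor-like protein pseudogene in the range of AT2G15042, had 0.296 FPKM in Col-0, 0.0489 in dd and 0.357 under UV-B. None of the 4 was tested in the authors' deposited table.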
